A study of Homo sapiens with 6 samples.

Results

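DHRS2 and 8 relatives of the DHRS group of short-chain dehydrogenases (DHRS1, DHRS3, DHRS4, DHRS7, DHRS9, DHRS11, DHRS12 and DHRS13) were followed in T24 cells with and without extra RNF112. These 9 genes were taken by symbol from the 23152 genes counted, and 8 of them passed the filter on low counts. DHRS2 was chosen by its rise in these same samples, where its log2 fold change ranked 7 among 14467 genes tested. Among 14349 genes with a mean count of at least 10 it ranked 4, between LINC00520 at 4.10 and C7orf57 at 3.59. Its rise is therefore given as a description, with no test. The 8 relatives were taken by name, for sharing the DHRS symbol with DHRS2, and with earlier results of these data known.

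T24 is a long-used cell line from a human bladder carcinoma. To ask how RNF112, an E3 ubiquitin ligase, acts in bladder cancer, the RNA of 3 samples overexpressing it (oeRNF112) was compared with that of 3 vector samples. The study's methods describe both plasmid transfection with a Lipofectamine reagent and a stable lentiviral T24 line, and do not say which gave the RNA. Both groups were grown in the same medium with serum. The treatment text of the labels speaks of siRNA, and neither source gives the time of harvest for the RNA samples or says that the samples came from separate cultures, so that p-values measure only the spread between these samples. Total counts lay between 40029547 and 41259569. RNF112 had 19 to 27 counts in vector and 29753 to 36963 in oeRNF112, which may include reads from the construct. Of 11 urothelial and epithelial markers in the table, 7 had at least 10 counts in every sample, led by KRT7, KRT8 and KRT18, whereas the epithelial cadherin CDH1 had at most 1 count and the uroplakin UPK3A at most 1. The summed level of these 11 markers, in CPM, counts scaled to the library total by edgeR's TMM factors, was 3586 to 4609 in vector and 2771 to 3316 in oeRNF112. KRT7 and KRT18 were lower in edgeR's test, while EPCAM was higher, from 94, 66 and 99 counts to 143, 183 and 165 (log2 fold change 0.84, adjusted p = 0.0208). The part of these differences in the results was not tested. The summed CPM was at most 5.26 for 6 leukocyte markers and at most 0.638 for 5 endothelial markers in any sample, and that of 6 fibroblast markers was 7.03 to 9.80 in vector and 10.2 to 11.4 in oeRNF112.

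Short-chain dehydrogenases bind NAD(H) or NADP(H) and move a hydride between a carbonyl and an alcohol, on substrates such as retinoids, steroids, sugars and reactive dicarbonyls. DHRS2, also called Hep27, reduces dicarbonyl compounds and is found in mitochondria and the nucleus. DHRS3 turns retinal back into retinol, DHRS9 can oxidize retinol, and DHRS4 reduces retinal and other carbonyls in peroxisomes. Together with the retinol dehydrogenases they set how much vitamin A reaches retinoic acid, which guides the differentiation of the urothelium.

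The annotation places DHRS2 on chromosome 14, at 23630115 to 23645639 in GRCh38.p14, with DHRS4, DHRS4L2 and DHRS4L1 following on the same arm from 23953770 to 24051377. DHRS1 lies at 24290598 to 24299780 and DHRS7 at 60144119 to 60169889 of the same chromosome. The 250 bases before the transcription start, from RefSeq (GRCh38.p14), are shown for the gene that rose most, for its closest relative on the chromosome and for the relative with the deepest fall. Capitals mark TATAAA or GGGCGG on either strand. The windows are chr14:23629865-23630114 (plus strand) for DHRS2, chr14:23953520-23953769 (plus strand) for DHRS4 and chr1:12618211-12618460 (minus strand, the outermost of 3 starts) for DHRS3, each written 5′ to 3′.
DHRS2: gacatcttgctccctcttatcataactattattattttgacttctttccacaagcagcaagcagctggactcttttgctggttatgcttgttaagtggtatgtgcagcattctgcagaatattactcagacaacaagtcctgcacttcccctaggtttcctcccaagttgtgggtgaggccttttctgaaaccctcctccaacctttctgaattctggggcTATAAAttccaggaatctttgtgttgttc
DHRS4: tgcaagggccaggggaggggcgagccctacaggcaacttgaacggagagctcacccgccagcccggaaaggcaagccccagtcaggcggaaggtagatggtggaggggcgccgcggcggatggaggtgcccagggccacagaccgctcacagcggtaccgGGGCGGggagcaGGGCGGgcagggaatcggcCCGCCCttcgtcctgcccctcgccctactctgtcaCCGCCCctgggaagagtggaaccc
DHRS3: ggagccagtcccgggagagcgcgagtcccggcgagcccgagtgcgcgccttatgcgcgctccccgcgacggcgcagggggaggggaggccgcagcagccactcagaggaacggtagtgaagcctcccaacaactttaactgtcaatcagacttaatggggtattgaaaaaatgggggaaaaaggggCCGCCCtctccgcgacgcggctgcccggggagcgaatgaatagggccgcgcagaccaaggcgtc
The DHRS2 window held TATAAA, whose first base lies 29 bases before the start, and no GGGCGG, while the DHRS4 window held GGGCGG 4 times and the DHRS3 window once. G and C made up 43.2% of the DHRS2 window, 70.8% of that of DHRS4 and 65.2% of that of DHRS3, against a median of 58% over 34943 windows. The windows of the other DHRS3 starts held no GGGCGG and had 58.8% and 54.8% of G and C, so the DHRS3 values depend on the start shown. RefSeq windows were found for 8 of the 9 genes, and DHRS7 had no entry. TATAAA occurred in 4 of their 16 windows, those of DHRS2 and DHRS9, and in 10.8% of all windows. GGGCGG occurred in 7 of the 16 windows, from DHRS1, DHRS3, DHRS4, DHRS11 and DHRS12, and in 42.5% of all. The E-box letters CACGTG occurred in 0 of the 16 windows of the 8 genes and in 6.32% of all windows, and CCAAT occurred in a window of DHRS9 and in 32% of all. A match of letters is a description and not a site.

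DHRS2 rose from a low level. It had 96, 86 and 109 counts in vector and 1098, 1457 and 1337 counts in oeRNF112. Every oeRNF112 sample held more than 10 times as many reads as any vector sample, and the groups lay far apart. After scaling by edgeR's TMM factors the log2 fold change was 3.66 (standard error 0.156), a 12.6-fold rise. In RPKM, counts scaled to gene length and library total, DHRS2 stood at 0.901, 0.823 and 1.05 in vector and at 10.6, 13.9 and 12.8 in oeRNF112. Leaving out any 1 sample gave log2 fold changes from 3.57 to 3.77. It was 2.80 on the scale of log2(RPKM + 1), where the pseudocount shortens changes of genes near 1 RPKM.

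The sequence of DHRS2 had little in common with that of other transcripts. Of the 7876 different 50-base words in its GENCODE transcripts, 6 (0.0762%) also occurred in transcripts of another gene on the same strand, mostly ZNF337-AS1, and no gene of that annotation overlaps DHRS2. In a culture, more cells with DHRS2 RNA and more RNA per cell cannot be told apart from these data.

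**Figure D1:**
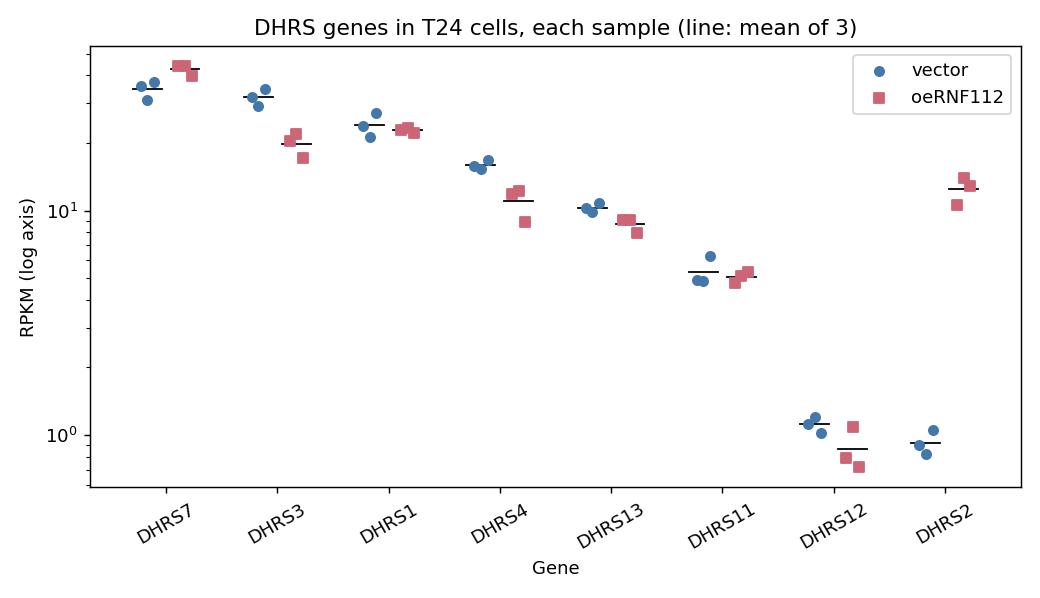
RPKM on a log axis for the 8 genes of the group with reads in every sample, with circles for the 3 vector and squares for the 3 oeRNF112 samples and a line at each mean. DHRS2 moved from 0.823 to 1.05 RPKM up to 10.6 to 13.9. In RPKM, DHRS3, DHRS4 and DHRS13 sat lower, and DHRS7 higher, in every oeRNF112 sample than in any vector sample. DHRS9, listed at 0 in 5 of 6 samples, is not drawn.

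Per length, the order of the 9 genes changed mainly through DHRS2 and DHRS3. In vector, DHRS7 led at 34.9 ± 3.34 RPKM (SD, n = 3), next to DHRS3 at 32.1 ± 2.73, and the ranges of these 2 overlapped. DHRS1 followed at 24.1 ± 2.96, DHRS4 at 16.0 ± 0.706, DHRS13 at 10.3 ± 0.483 and DHRS11 at 5.33 ± 0.806, each apart from the next. DHRS12, at 1.11 ± 0.0888, overlapped with DHRS2, at 0.924 ± 0.114. In oeRNF112, DHRS7 led alone at 42.5 ± 2.55 RPKM, above DHRS1 at 22.8 ± 0.633 and DHRS3 at 19.8 ± 2.38. DHRS2 had moved from rank 8 to rank 4, at 12.5 ± 1.68 RPKM. There it overlapped with DHRS4 at 11.0 ± 1.85, which in turn overlapped with DHRS13 at 8.70 ± 0.683. DHRS11 at 5.05 ± 0.293 and DHRS12 at 0.867 ± 0.197 kept the next places.

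The summed RPKM of the 9 genes was 125, 114 and 135 in vector and 124, 131 and 115 in oeRNF112, so that the sums overlapped. DHRS2 made up 0.723%, 0.723% and 0.773% of that sum with vector and 8.55%, 10.6% and 11.2% with oeRNF112. The mean of DHRS2 gained 11.5 RPKM and that of DHRS3 changed by -12.3 RPKM.

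Among the 8 relatives, 7 were tested and 2 were lower in oeRNF112 at an adjusted p under 0.05 in edgeR's quasi-likelihood test, DHRS3 and DHRS4. This is 28.6% of the relatives tested, against 18.1% of all 14467 genes in either direction and 8.14% in the lower direction. None was higher, against 9.97% of all genes. At an unadjusted p under 0.05, 0 were higher and 4 lower, against 17.1% and 16% of all genes. DESeq2 called 0 higher and 3 lower, against 10.7% and 9.53% of the 15514 genes to which it gave an adjusted p. The fitted value was below 0 for 6 of the 7. Their median log2 fold change was -0.34, against 0.00 over all genes tested. All genes split into 1442 higher and 1178 lower, or 2020 and 659 when scaled by library totals, where the relatives still counted 2 lower and 0 higher.

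DHRS3, which returns retinal to retinol, fell the most. It had 3881, 3494 and 4128 counts in vector and 2397, 2605 and 2042 in oeRNF112, and no oeRNF112 sample reached the lowest vector sample. The fitted level was 0.579 of that in vector, a log2 fold change of -0.79 with a standard error of 0.119 (edgeR, adjusted p = 0.00235). The adjusted p was at most 0.0215 over 15 other settings, leaving out each sample included.

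DHRS4, the peroxisomal carbonyl reductase, had 878, 835 and 907 counts in vector and 637, 667 and 481 in oeRNF112. The groups did not overlap, and oeRNF112 replicate 3 was the lowest. Its log2 fold change was -0.63 ± 0.138 (SE, edgeR, adjusted p = 0.0128), and without vector replicate 1 the adjusted p was 0.0605. DHRS4 and its neighbour DHRS4L2, a copy with a protein-coding annotation, share sequence: 35.4% of the 50-base words of DHRS4 transcripts also occurred in DHRS4L2. Reads may therefore have been split between these 2 genes. DHRS4L2 had 576, 449 and 526 counts in vector and 357, 446 and 322 in oeRNF112. The highest oeRNF112 sample lay just below the lowest vector sample. The log2 fold change was -0.54 ± 0.157 (SE, edgeR, adjusted p = 0.0393), and the adjusted p ran from 0.0114 to 0.162 over the 15 other settings, above 0.05 among others without vector replicate 1 (0.162), vector replicate 3 (0.0885), oeRNF112 replicate 1 (0.129) or oeRNF112 replicate 3 (0.126).

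DHRS4L1, a transcribed pseudogene of the same cluster, had 7 to 17 counts in every sample and overlapped between the groups. DHRS4-AS1, the antisense RNA that overlaps DHRS4, had 595, 530 and 540 counts in vector and 585, 592 and 547 in oeRNF112. Its log2 fold change was -0.03 (95% interval -0.27 to 0.21, adjusted p = 0.875 from edgeR's test), and its sign changed with the scaling, to 0.064 with library totals. The library kit is stranded, but the strand setting of the counting is not given in the sources used here, so reads of DHRS4 and of its antisense RNA may not be fully separated.

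DHRS13 had 817, 768 and 840 counts in vector and 704, 709 and 616 in oeRNF112. The groups did not overlap, as was so for 36.8% of all genes tested, and 17.9% in the lower direction. Its log2 fold change of -0.34 (standard error 0.108) missed the threshold with an adjusted p of 0.0567 from edgeR's test, and passed it with DESeq2 (adjusted p = 0.0394) and without vector replicate 2 (0.0416). DHRS12 had 152, 159 and 135 counts in vector and 104, 145 and 95 in oeRNF112, where replicate 2 reached into the vector range. Its log2 fold change was -0.45 ± 0.198 (SE, edgeR, adjusted p = 0.143), and without oeRNF112 replicate 2 it was -0.65 (adjusted p = 0.0475). Genes of the same annotation overlap both: 37.7% of the DHRS13 words occurred in AC024267.6 on the other strand and 16.3% of the DHRS12 words in AL162377.3 on the same strand.

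DHRS7, an endoplasmic reticulum enzyme of retinoids and steroids, was the most abundant relative per length. It had 3835, 3256 and 3911 counts in vector and 4542, 4616 and 4128 in oeRNF112, but the groups overlapped once scaled by the TMM factors. Of its 50-base words, 24.3% occurred in PCNX4 on the other strand. The log2 fold change was 0.19 (95% interval -0.04 to 0.42, adjusted p = 0.233 from edgeR's test). DHRS1 had 1636, 1440 and 1832 counts in vector and 1528, 1589 and 1497 in oeRNF112, with a log2 fold change of -0.17 (95% interval -0.42 to 0.08, adjusted p = 0.316). DHRS11, which acts on steroids and other carbonyls, had 313, 303 and 391 counts in vector and 294, 319 and 333 in oeRNF112, with a log2 fold change of -0.17 (95% interval -0.49 to 0.14, adjusted p = 0.427). The intervals of these 3 genes include 0. DHRS9 had 0 counts in 5 samples and 1 count in oeRNF112 replicate 3. A count of 0 allows up to 3 reads, or at most 0.0334 RPKM of DHRS9, for counting error only, and no difference was detectable at this depth.

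**Figure D2:**
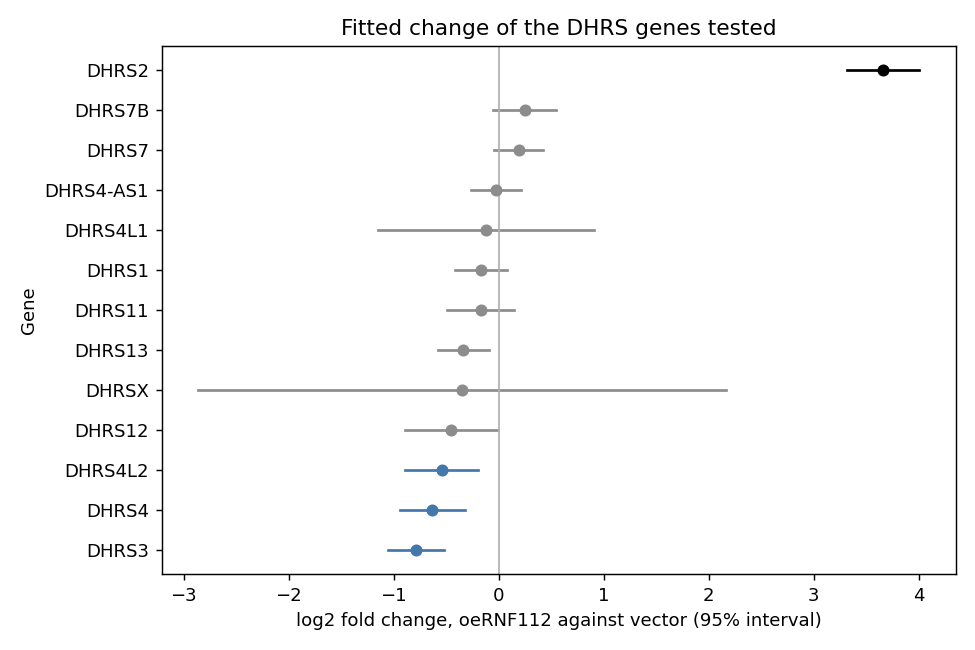
Fitted log2 fold change of oeRNF112 against vector with its 95% interval for the 13 DHRS genes tested, from edgeR. Blue marks genes with an adjusted p under 0.05 (DHRS3, DHRS4 and DHRS4L2), grey those above it, and black DHRS2. DHRS2 was chosen by its rise in these samples, so its interval is a description of spread and not a test. DHRS2 lies at 3.66, the next highest gene is DHRS7B at 0.25, and the sign of DHRS4-AS1, DHRS4L1 and DHRSX changed in other settings.

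Of the other genes with a DHRS symbol, DHRS7B, an enzyme of ether lipid synthesis, had 352, 332 and 361 counts in vector and 391, 504 and 416 in oeRNF112. Its groups did not overlap, and its log2 fold change was 0.25 ± 0.134 (SE, edgeR, adjusted p = 0.227). DHRSX had 8, 10 and 234 counts in vector and 172, 23 and 16 in oeRNF112. Vector replicate 3 and oeRNF112 replicate 1 stood far above the other samples, and the log2 fold change had a standard error of 1.13. GENCODE lists DHRSX on both X and Y, and whether this bears on its counts was not tested. DHRS7C was not analysed here.

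Of the 5 nearest genes on each side of DHRS2, 6 were in the table and 4 were tested. At an adjusted p under 0.05, AP1G2 alone was called, as lower. Of those on the lower side, JPH4, which ties the cell membrane to the endoplasmic reticulum, had 4, 9 and 3 counts in vector and 20, 11 and 17 in oeRNF112, at -62.1 kb. Its groups did not overlap, and its log2 fold change of 1.49 (standard error 0.506) had an adjusted p of 0.0687 from edgeR's test. JPH4 passed the filter on low counts only through its oeRNF112 samples. AP1G2, a subunit of a vesicle adaptor, was lower, from 3207, 3374 and 3391 counts to 2708, 2334 and 2531 (log2 fold change -0.48, adjusted p = 0.00634). AP1G2-AS1 had 49, 92 and 96 counts against 111, 64 and 138, and ZFHX2 had 16, 17 and 17 against 29, 16 and 24. Both overlapped between the groups. On the upper side, LOC105370407 and LOC105370408 had at most 1 count in any sample. LOC124903289, LOC105370410, LOC105370409 and BRD7P1 were not analysed here.

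Within 1 Mb on either side, a window chosen after gene results were known, 59 other genes were tested. Of these, 5 were higher and 11 lower (27.1% called, against 18.1% of all genes), with a median log2 fold change of -0.17. By direction, 9.97% of all genes were called higher and 8.14% lower. The 11 lower genes include DHRS4, DHRS4L2 and SDR39U1, which are also reported in other paragraphs. The largest rise among the 59 genes was that of SLC7A8, an amino acid transporter, from 3, 4 and 3 counts to 20, 12 and 18 (log2 fold change 2.20 ± 0.475, SE, edgeR). It counts among the 5 higher. A gene this low in vector passes the filter on low counts only if it is higher in oeRNF112, so its rise is given as a description.

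**Figure D3:**
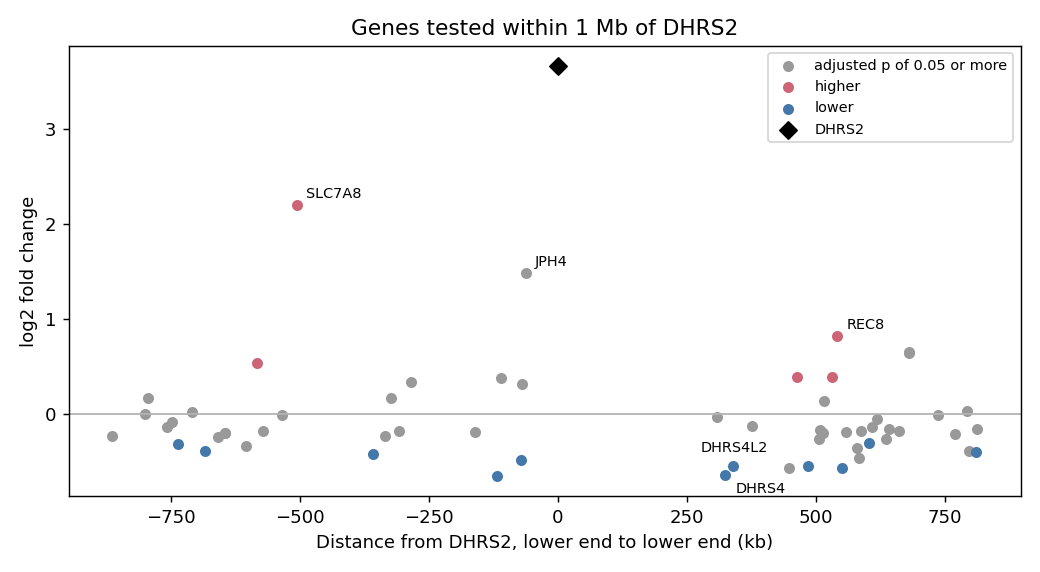
Log2 fold change of the 60 genes tested within 1 Mb of DHRS2 against their distance from it in kilobases, from edgeR, with red for higher, blue for lower and grey for an adjusted p of 0.05 or more. The diamond at 3.66 is DHRS2. SLC7A8 follows at 2.20, and DHRS4 and DHRS4L2 lie at -0.63 and -0.54.

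The genes whose sample profile was most like that of DHRS2 were taken by the root mean square difference of log2(CPM + 0.1), centred on the vector mean, over the 6 samples. IFI6, an interferon-induced mitochondrial protein, was the closest at 0.356, with 842, 695 and 745 counts in vector and 6451, 8570 and 6484 in oeRNF112. In both genes the highest oeRNF112 sample was replicate 2, as it also was in RNF112 and in some of the other genes named here. LINC00520 followed at 0.540, BCL2A1, an inhibitor of apoptosis, at 0.699, PPP2R2C, a regulatory subunit of a phosphatase, at 0.715, and SERPINB2, an inhibitor of plasminogen activators, at 0.722. Vector counts were at most 7 for LINC00520 and at most 5 for PPP2R2C, so that their profiles rest on few reads. The measure picks genes with a rise of like size, and the 6 samples hold only 2 conditions.

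**Figure D4:**
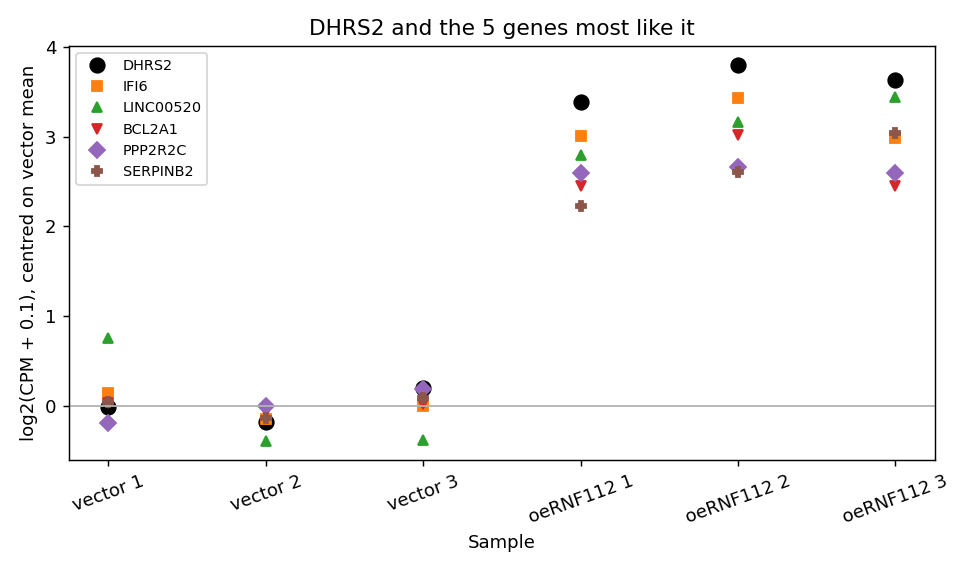
Log2(CPM + 0.1), centred on the vector mean, in each of the 6 samples for DHRS2 (black circles) and the 5 genes most like it. In vector the 6 genes lie between -0.39 and 0.76, the extremes both from LINC00520, and in oeRNF112 all lie above 2.2.

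A wider list of 63 short-chain dehydrogenases outside the group was counted next. Of the 50 tested, 9 were lower and 0 higher (18%, against 18.1% called over all genes and 8.14% called lower). At an unadjusted p under 0.05, 3 were higher and 14 lower (17.1% and 16% of all genes), and DESeq2 called 0 higher and 10 lower (10.7% and 9.53% of all genes). The median log2 fold change was -0.11, with 34 fitted below 0 and 16 above. HSD3B7, an enzyme of bile acid synthesis, had the largest change among those called, from 765, 787 and 726 counts to 429, 441 and 354. This was a log2 fold change of -0.97 ± 0.120 (SE, edgeR, adjusted p = 0.000839). GFUS, which makes GDP-fucose, fell by 0.56 on the log2 scale (adjusted p = 0.0116 from the same test). DECR1 and DECR2, the mitochondrial and peroxisomal dienoyl-CoA reductases for unsaturated fatty acids, were at -0.39 and -0.49 (adjusted p of 0.0323 and 0.0232). NDUFA9, a short-chain dehydrogenase-like subunit of respiratory complex I, was at -0.43, SDR39U1 at -0.40, BDH2, a cytosolic hydroxybutyrate dehydrogenase, at -0.37, and SPR, the last enzyme of tetrahydrobiopterin synthesis, at -0.37 (adjusted p of 0.0224, 0.0356, 0.035 and 0.0446). DHRS4L2, described above, was the remaining gene called.

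The count for this list depended on which sample was left out. In both groups replicates 2 and 3 differed most, with a chi-square per gene between their counts of 59.5 in vector and 55.0 in oeRNF112. The other pairs within groups lay between 17.8 and 28.6. The part of this spread in the calls was not tested. The count was 1 without vector replicate 1 or oeRNF112 replicate 1, 2 without vector replicate 3 or oeRNF112 replicate 3, and 14 without vector replicate 2. Scaled by library totals alone, 4 genes were lower and 2 higher, and with limma on log2(RPKM + 1), 3 were lower and 2 higher, so the direction of the calls depends on the scaling.

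**Figure D5:**
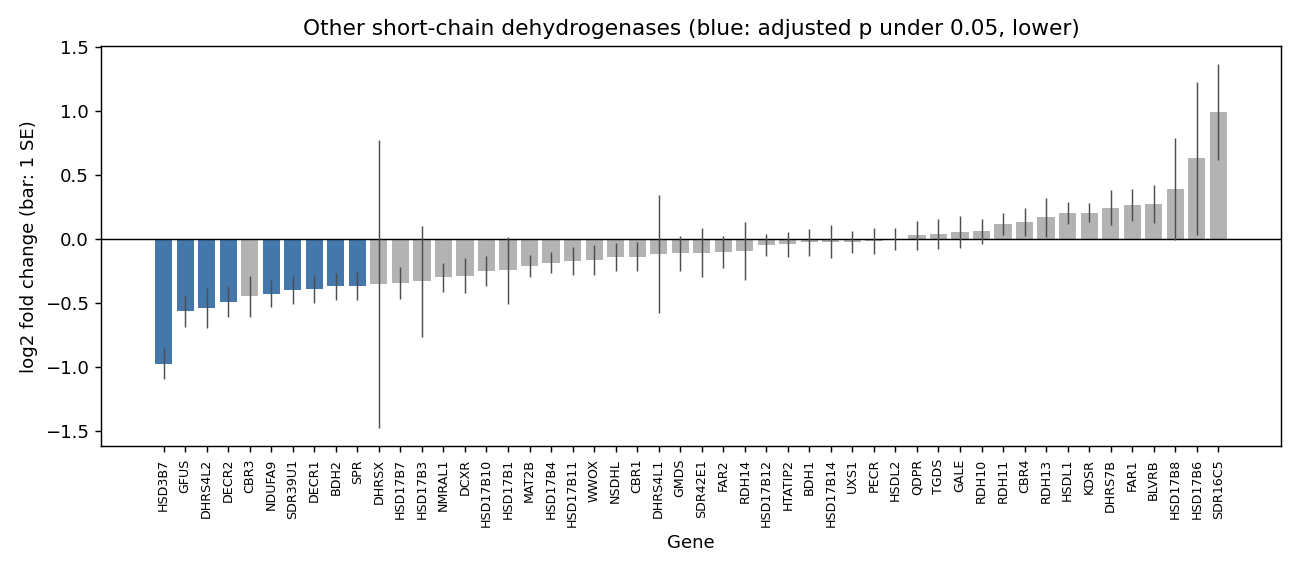
Log2 fold change of oeRNF112 against vector, from edgeR, for the 50 tested genes of the wider short-chain dehydrogenase list, ordered by value, with 1 standard error. The 9 blue bars, from HSD3B7 at -0.97 to SPR at -0.37, had an adjusted p under 0.05. The widest error, 1.13, is that of DHRSX.

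Genes of the retinoid pathway moved in both directions. Of the 18 tested of 30 listed, 3 were higher and 3 lower (33.3%, against 18.1% of all genes), with a median log2 fold change of 0.09. CRABP2, which carries retinoic acid to its nuclear receptors, rose from 515, 474 and 469 counts to 1091, 1333 and 864. The log2 fold change was 1.10 ± 0.157 (SE, edgeR, adjusted p = 0.00178), with no overlap between the groups. ALDH1A3, an enzyme that oxidizes retinal to retinoic acid, fell from 30220, 31970 and 25544 counts to 20415, 18230 and 20327 (log2 fold change -0.65 ± 0.0982, SE, edgeR, adjusted p = 0.00228). ALDH1A1 of the same list, named after its values were seen, went the other way, from 35, 36 and 58 counts to 70, 82 and 99. Its log2 fold change was 0.87 (edgeR, adjusted p = 0.0515). The receptor subunits RXRA and RXRB were at -0.35 and -0.44 (adjusted p of 0.0202 and 0.0211), and the retinol carrier RBP4 was at 0.46 (adjusted p = 0.0266). CYP26B1, the remaining gene called, was at 0.44 (edgeR, adjusted p = 0.0326). The retinol dehydrogenases RDH10, RDH11, RDH13 and RDH14, at 0.06, 0.11, 0.17 and -0.09, all had an adjusted p over 0.05 from the same test and were named after their values were seen. The count of 6 was 2 without vector replicate 1 or oeRNF112 replicate 1 and 3 without oeRNF112 replicate 3.

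Carbonyl-handling enzymes of other families gave 6 lower and 0 higher of 19 tested (31.6%, against 18.1% called over all genes and 8.14% called lower). At an unadjusted p under 0.05, 8 were lower and 0 higher (16% and 17.1% of all genes), and DESeq2 called 6 lower and 0 higher (9.53% and 10.7% of all genes). Their median log2 fold change was -0.21. ALDH3B1 and ALDH3A2, which oxidize fatty aldehydes, were at -0.97 and -0.61 (adjusted p of 0.00147 and 0.001 from edgeR's test). ALDH7A1, an aldehyde dehydrogenase of lysine breakdown, was at -0.42. AKR1C3, a ketosteroid reductase, was at -0.71 and NQO1, a quinone reductase, at -0.53, falling from 27118, 23104 and 26222 counts to 18298, 19731 and 17886 (adjusted p of 0.0149, 0.00471 and 0.00633 for these 3 genes). AKR1A1, the remaining gene called, was at -0.48 (edgeR, adjusted p = 0.0225).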

How the data were processed

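RNA-seq of 3 vector and 3 oeRNF112 samples was used. The submitters' processing notes name Trimmomatic 0.36, featureCounts, Subread 1.5.1 and GRCh38. The aligner, annotation and strand setting are not given in the sources used here. The deposited counts are whole reads per gene, without normalization. The deposited RPKM values equalled count, column total and 1 length per gene within 1% for 20637 of 20637 genes compared. No 2 samples were copies of each other.

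Counts were fitted with edgeR 4.0.16 in R 4.3.3 (filter on low counts, TMM, quasi-likelihood test, Benjamini-Hochberg over all 14467 genes, threshold 0.05), as "~ group" with all 6 samples. The standard error is the absolute log2 fold change divided by the square root of F. The genes and lists were chosen with earlier results of these data known. Named in each list were up to 10 called short-chain dehydrogenases with the largest changes and no overlap, and the 5 smallest p-values of each other list. 1 further gene list of the design is not reported here. Other genes were named for their place beside DHRS2, for a profile like its own, or as stated.

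Alternatives were DESeq2 1.42.0, other scaling and filters, a replicate block, each sample left out, and limma 3.58.1 on log2(RPKM + 1) or log2(RPKM + 0.1). The scripts were tested on simulated data. Transcripts were from GENCODE 29 and promoter windows from RefSeq.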

Additional observations from a re-analysis of the deposited data

How the results depend on the processing

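Of 15 alternatives, the rise of DHRS2 kept its direction in all, from 2.80 with limma on log2(RPKM + 1), with or without a mean RPKM of at least 1, to 3.77. With each sample left out in turn, the count of genes called went from 1061 to 3387, of relatives from 1 to 3, of the wider dehydrogenase list from 1 to 14 and of the retinoid list from 2 to 5. With library totals 2020 genes were higher and 659 lower, against 1442 and 1178, and the median over all genes was 0.096 on the log2 scale. The wider dehydrogenase list had 5 calls in each of the 3 fits on RPKM.

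The fit with the replicate block called 876 genes, 1 relative (DHRS3), 1 gene of the wider list, 2 of the retinoid list and 3 of the carbonyl list, and DHRS4 had an adjusted p of 0.0569. After centring on each group, same-numbered samples correlated over genes at -0.181, -0.539 and -0.454. With 3 samples per group the centred values depend on each other, so these correlations cannot show whether same-numbered samples shared a culture or batch.

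Signs changed only for DHRS genes that had not passed the threshold. DHRS4-AS1 was at 0.064 with library totals, 0.052, 0.063 and 0.052 in the fits on RPKM and between -0.074 and 0.033 with samples left out. DHRSX was at 0.34 with the block, 0.28 with limma on log2(RPKM + 0.1) and between -2.20 and 2.89 with samples left out, and DHRS4L1 between -0.49 and 0.15. The cause was not tested.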

Other observations

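DHRSX lies in the pseudoautosomal region, which X and Y carry in the same sequence. Of 9 genes of that region on the short arm with a mean count of at least 20, 3 differed by more than 3-fold among the vector samples alone, against 1.09% of 13455 genes with such a count. Besides DHRSX these were GTPBP6, with 315, 61 and 48 counts in vector and 29, 28 and 35 in oeRNF112, and PLCXD1, with 16, 34 and 71 counts in vector and 92, 45 and 48 in oeRNF112. The region was looked at because of DHRSX, which is among the 3, and the sets compared were not matched for depth. Others of the 9 were steadier: ZBED1 had 51, 62 and 63 counts in vector and 57, 50 and 46 in oeRNF112, and the highest CPM of AKAP17A was 1.66 times its lowest over the 6 samples. SLC25A6 had 3326 counts in oeRNF112 replicate 3 and 448 to 1184 in the other samples. These 5 genes besides DHRSX were named after their values were seen.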
